A study of Mus musculus with 6 samples.

Results

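Ctgf, Cyr61, Ankrd1, Amotl1, Amotl2, Axl, Crim1, Ajuba, Nuak2 and Tgfb2 are genes widely used as a read-out of Yap activity, and each was followed here by name through the deposited counts. All 10 symbols were found among the 13226 genes of the table, under the older names Ctgf and Cyr61 for the genes now called Ccn2 and Ccn1. The list came from knowledge of other cells and its rule used no measured value, but it was chosen with earlier results of these data known. RNA was sequenced from whole tibialis anterior (TA) muscles of male C57BL/6 mice, which were injected at 8 weeks of age and sampled 7 days later. One group of 3 muscles received AAV6:Yap-shRNA, a hairpin against Yap carried by a muscle-infecting adeno-associated virus, and the other group of 3 muscles received a control vector. It is called control throughout, because its sample titles give an empty vector and its vector entry gives AAV6:LacZ-shRNA. Control and treated muscles were from opposite limbs of 3 animals. The Yap hairpin was cloned into a plasmid with a CMV promoter and eGFP, and a whole muscle also holds vessel, connective tissue, nerve and immune cells that the vector need not reach.

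Yap is a transcriptional co-activator that has no DNA-binding domain of its own. In the nucleus it binds the Tead transcription factors, which recognise the sequence GGAATG, or CATTCC on the opposite strand, a site known in muscle promoters as the MCAT element. The kinases Lats1 and Lats2 of the Hippo pathway phosphorylate Yap and hold it in the cytoplasm. Several classical targets feed back on the pathway: Amotl1 and Amotl2 encode angiomotin-like proteins that bind Yap outside the nucleus, and Ajuba encodes a LIM scaffold protein that restrains the Lats kinases. The others encode secreted proteins (Ctgf, Cyr61, Tgfb2), proteins of the cell membrane (Axl, Crim1), a kinase (Nuak2) and a protein shared between the sarcomere and the nucleus (Ankrd1).

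The Tead sequence was searched for in the 250 bases before the start of each gene to show where its letters occur near these genes. RefSeq windows of build GRCm38.p6 were at hand for 8 of the 10 genes, and those of Ctgf and Nuak2 were not analysed here. GGAATG or CATTCC was present in 6 of the 8 windows, namely those of Ankrd1, Ajuba, Cyr61, Amotl2, Axl and Crim1, and was not found in those of Tgfb2 and Amotl1. Of all 32851 promoter windows of the same length, 12.6% held at least 1 match on either strand and 1.02% held 2 or more, as did Ankrd1 and Ajuba. The 8 matches are shown with 12 bases on each side, 5′ to 3′ on the strand of the gene, with the 6 matching bases in capitals. The matches began 210 and 123 bases before the start of Ankrd1, 186 and 164 bases before Ajuba, 103 before Cyr61, 65 before Amotl2, 233 before Axl and 79 before Crim1. A match is a description of the letters, and whether Tead factors bind there was not measured. The stretches printed for Ankrd1 and Amotl2 overlap an exon of the same gene in the GENCODE annotation.
Ankrd1, first match (chr19:36120037-36120066, minus strand): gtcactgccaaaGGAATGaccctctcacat
Ankrd1, second match (chr19:36119950-36119979, minus strand): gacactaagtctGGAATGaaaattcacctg
Ajuba, first match (chr14:54577830-54577859, minus strand): cgttgatggataCATTCCacagtgcccctc
Ajuba, second match (chr14:54577808-54577837, minus strand): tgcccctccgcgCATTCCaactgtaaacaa
Cyr61 (chr3:145650071-145650100, minus strand): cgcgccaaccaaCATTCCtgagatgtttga
Amotl2 (chr9:102717727-102717756, plus strand): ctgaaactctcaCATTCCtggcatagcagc
Axl (chr7:25788949-25788978, minus strand): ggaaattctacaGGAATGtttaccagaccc
Crim1 (chr17:78200157-78200186, plus strand): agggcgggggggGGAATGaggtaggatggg

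The libraries held 11987167 to 12710393 counts. The 7 muscle fibre markers, such as Acta1 and Ckm, summed to 117300 to 141600 CPM (a gene's share of the library's counts, scaled by the TMM method of edgeR) in every library, as the label of TA muscle requires. Transcripts of other tissues varied between muscles. The 5 tendon markers tested (Tnmd, Fmod, Scx, Comp and Thbs4) summed to 639.0 CPM in control 1 and 529.3 CPM in Yap-shRNA 3, against 126.2 to 173.8 CPM in the other 4 muscles. Plasma protein transcripts of liver (5 genes) summed to 400.6 CPM in control 3, against 0.856 and 47.3 CPM in the other controls and 0.399 to 35.4 CPM in Yap-shRNA muscles, and 3 of them were at 0 in a library. Control 1 and Yap-shRNA 3 thus stand apart in tendon markers and control 3 in liver transcripts. Results that rest on one of these muscles are given with and without it. Without control 3 no target was called, and the log2 fold changes of Ankrd1 and Ctgf were 0.52 and -0.26. In whole muscle, fewer cells of a type and less RNA per cell cannot be told apart.

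The targeted gene was lower in each treated muscle. Yap1 stood at 71.2, 65.3 and 68.4 CPM in control muscles 1 to 3 and at 32.0, 23.9 and 39.5 CPM in treated muscles 1 to 3, or 46.5% of control. The groups did not overlap (p = 0.1 by a two-sided exact permutation test, below which groups of 3 cannot go), and the log2 fold change was -1.10 (95% interval -1.46 to -0.75). The quasi-likelihood test of edgeR gave an adjusted p of 0.323 (Benjamini-Hochberg, over 13113 genes). The other members of the Yap and Tead complex were measured as well. Taz (Wwtr1), the relative of Yap that shares its targets, had a log2 fold change of 0.11 (interval -0.15 to 0.37), and Tead1, the most abundant Tead transcript by CPM, one of -0.0032 (interval -0.24 to 0.23). Tead3 was the only gene of the 9 in this family to be higher in every treated muscle, beside 2.54% of all genes. It stood at 11.8, 12.4 and 11.6 CPM against 11.2, 9.20 and 11.3 CPM in control (log2 fold change 0.18, interval -0.14 to 0.49, adjusted p = 1.0 by edgeR).

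None of the 10 classical targets passed the threshold of 0.05 on the adjusted p in edgeR's quasi-likelihood test. In that test 0.0% of the 13113 genes were called, so a count of 0 is also the background. None was called either by the likelihood ratio test of edgeR or by DESeq2, which each called 0.0381% of all genes, or by limma-voom, which called none. At an unadjusted p under 0.05 the quasi-likelihood test gave 0 of the 10 targets and 211 of all genes (1.61%), while limma-voom gave 1 target, Ankrd1 (unadjusted p = 0.0235), and so did edgeR with the muscle number as a block (unadjusted p = 0.0185). The median log2 fold change of the 10 genes was 0.014, beside -0.0025 for all genes tested, and 6 of the 10 were above 0, beside 49.0% of all genes. In 6 of the 10 genes the log2 fold change was within 0.1 of 0. None of the 10 had groups that did not overlap, beside 5.27% of all genes (2.54% higher and 2.73% lower in every Yap-shRNA muscle). The exact permutation p of the 10 ran from 0.2 to 1.0. The width of the intervals differed between genes. With all 6 muscles, the 95% interval of all 10 genes lay above the log2 fold change of Yap1 itself and above a halving. In 9 of the 10 it lay below a doubling, the exception being Ankrd1.

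**Figure D1:**
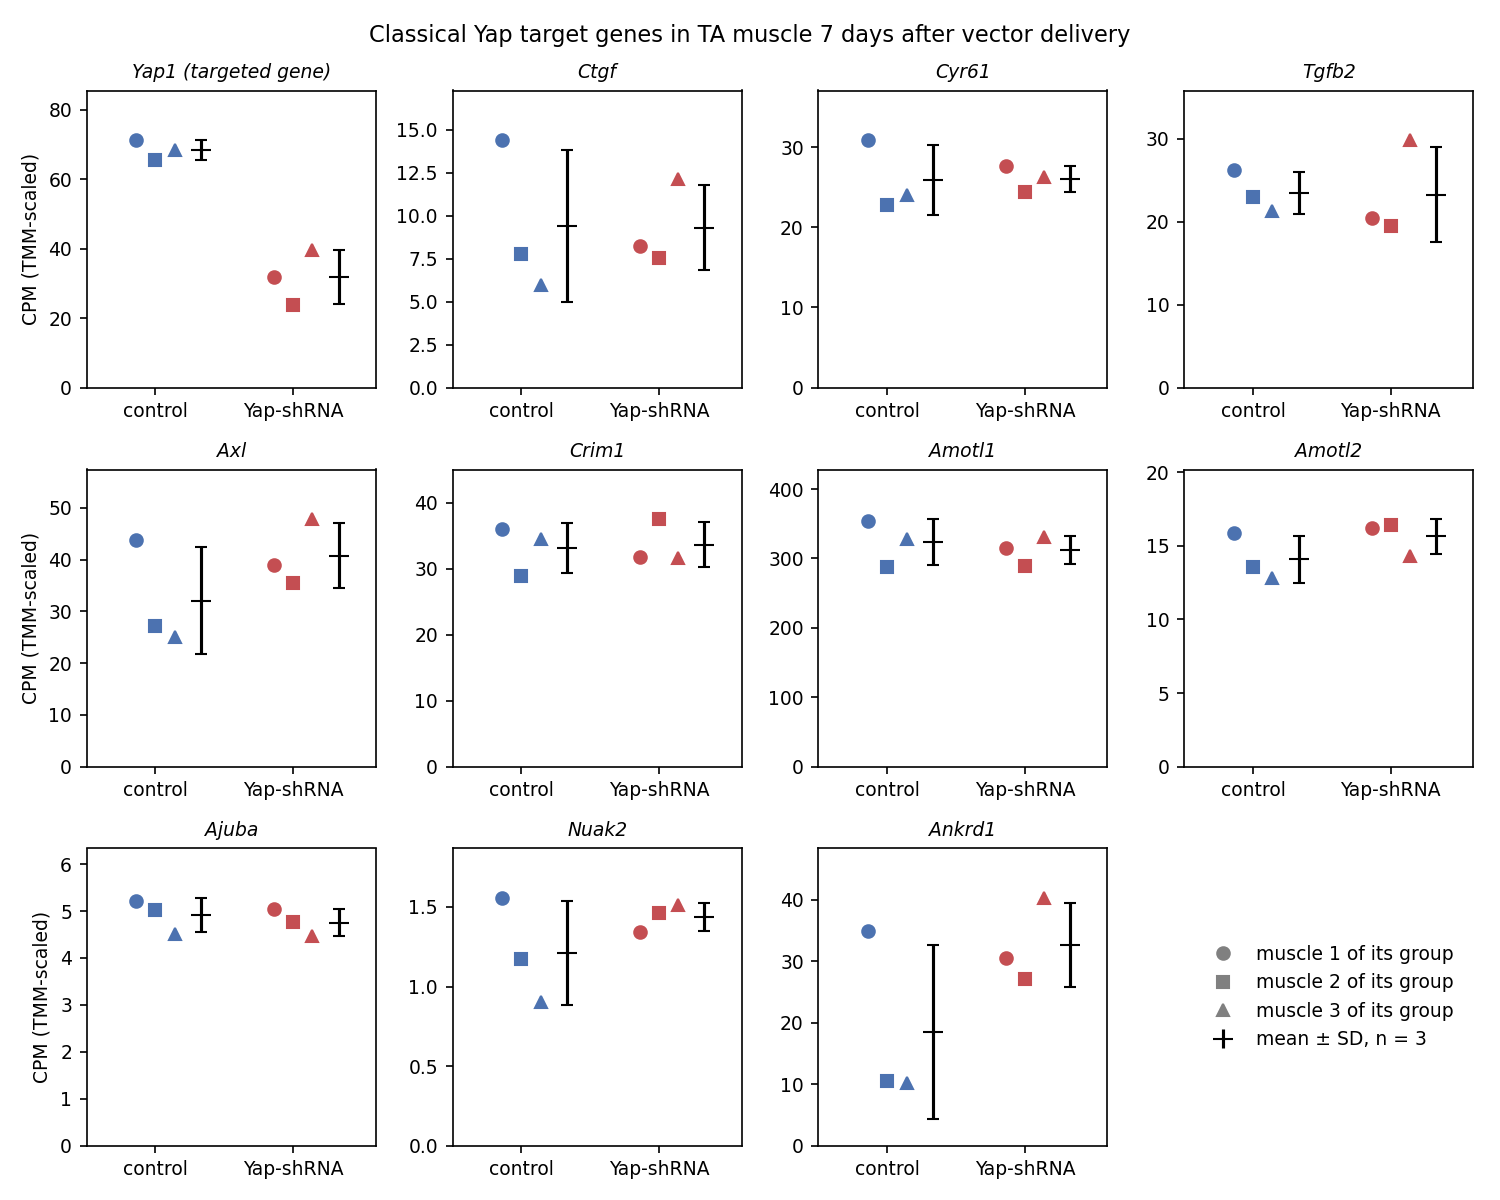
CPM of Yap1 and of the 10 target genes in each muscle (y axis, from 0; blue, control; red, Yap-shRNA; the marker gives the muscle number), with the mean ± SD of each group (n = 3) in black. Yap1 separates the groups, with 23.9 to 39.5 CPM in Yap-shRNA muscles and 65.3 to 71.2 CPM in control muscles, and none of the 10 target genes does.

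Among the secreted proteins, Ctgf and Cyr61 are commonly measured targets. Both encode CCN proteins, matricellular proteins that bind integrins and growth factors at the cell surface. Ctgf (ENSMUSG00000019997, chromosome 10 of GRCm38, 24595442 to 24598683, plus strand) stood at 14.4, 7.78 and 5.99 CPM in control muscles 1 to 3 and at 8.22, 7.53 and 12.1 CPM in treated muscles 1 to 3. These rest on 73 to 185 counts. Control 1 and Yap-shRNA 3 were the highest muscles and the groups overlapped. The means of 9.39 ± 4.43 CPM in control and 9.29 ± 2.48 CPM in Yap-shRNA muscles (SD, n = 3) gave a log2 fold change of -0.018 (standard error 0.31, interval -0.72 to 0.68). An interval of this width holds any Yap-shRNA level from 0.607 to 1.61 times control. Its sign turned without control 1, at 0.43 (interval -0.11 to 0.97). Without Yap-shRNA 3 the log2 fold change was -0.26 (interval -1.02 to 0.50), an interval that holds a halving.

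Cyr61 (ENSMUSG00000028195, chromosome 3, 145646976 to 145649981, minus strand) was steadier. It stood at 30.9, 22.8 and 24.1 CPM in control muscles and at 27.6, 24.4 and 26.2 CPM in treated muscles 1 to 3, and the treated muscles all lay between the lowest and the highest control. Its log2 fold change was 0.0061 (standard error 0.13), with an interval from 0.819 to 1.23 times control. Of the other genes of the CCN family tested, Nov had a log2 fold change of -0.083 (interval -0.82 to 0.66). Wisp2 had 12 to 22 counts in all muscles but Yap-shRNA 3, where it had 78, and its log2 fold change was 0.92 (interval -0.48 to 2.33).

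Tgfb2 (ENSMUSG00000039239, chromosome 1, 186622792 to 186705989, minus strand) encodes a secreted growth factor of the transforming growth factor beta family. It stood at 26.2, 22.9 and 21.3 CPM in control muscles and at 20.4, 19.5 and 29.8 CPM in treated muscles 1 to 3. Yap-shRNA 3 was the highest of the 6 muscles and the other treated muscles were the lowest, so the group mean of 23.2 ± 5.72 CPM (SD, n = 3) covers both ends. The log2 fold change was -0.015 (standard error 0.17). Without Yap-shRNA 3 the log2 fold change of Tgfb2 was -0.24 (interval -0.55 to 0.080), which edgeR did not call. Its groups then did not overlap, with Yap-shRNA lower, as in 6% of all genes. Its relatives Tgfb1 and Tgfb3 had log2 fold changes of 0.21 (interval -0.15 to 0.58) and 0.013 (interval -0.19 to 0.22). None of the 7 genes listed as responding to this growth factor family was called by edgeR, and 1 had an unadjusted p under 0.05.

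At the cell membrane, Axl (ENSMUSG00000002602, chromosome 7, 25757273 to 25788705, minus strand) encodes a receptor tyrosine kinase for the ligand Gas6 that is made by many cell types, macrophages and vessel cells among them. It stood at 43.9, 27.3 and 25.0 CPM in control muscles and at 38.9, 35.6 and 47.9 CPM in treated muscles 1 to 3. Each treated muscle was above control 2 and control 3, and control 1 was above all but Yap-shRNA 3. The log2 fold change was 0.35 (standard error 0.20, interval -0.11 to 0.80) with all muscles. It was 0.64 (interval 0.33 to 0.96, adjusted p = 0.529 by edgeR) without control 1, the highest control, whose removal raises the difference by construction. Without Yap-shRNA 3, the highest treated muscle, it was 0.21 (interval -0.29 to 0.72). The 10 macrophage markers tested, such as Csf1r and Mrc1, summed to 237.0, 148.2 and 101.3 CPM in control and 172.8, 205.3 and 222.5 CPM in treated muscles 1 to 3, and none of their defining markers was at 0 in a library. Of them Cd163 was higher in every treated muscle, as were 2.54% of all genes, at 7.05, 6.61 and 7.34 CPM against 6.07, 2.93 and 5.34 CPM. The summed level was highest in control 1 and lowest in the other controls, and its part in the Axl values was not tested. The related receptor genes Mertk and Tyro3 had log2 fold changes of -0.067 (interval -0.74 to 0.60) and 0.41 (interval -0.67 to 1.48).

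Crim1 (ENSMUSG00000024074, chromosome 17, 78200248 to 78376592, plus strand), which encodes a membrane protein that binds bone morphogenetic proteins, stood at 36.1, 28.9 and 34.5 CPM in control and 31.8, 37.6 and 31.6 CPM in treated muscles 1 to 3. The groups overlapped throughout, with a log2 fold change of 0.021 (standard error 0.12). Exons of Crim1 overlap those of Fez2 on the opposite strand, and as no strand setting is given for the counting, reads of the pair may not be told apart.

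The genes that feed back on the pathway varied little between muscles, with coefficients of variation over the controls of 7.33% to 11.4%. This was not particular to them, as Tgfb2 and Crim1 had 10.8% and 11.5%. Amotl1 (ENSMUSG00000013076, chromosome 9, 14541966 to 14645056, minus strand) stood at 353.9, 287.6 and 328.5 CPM in control and at 315.3, 289.7 and 330.4 CPM in treated muscles 1 to 3, giving -0.053 (standard error 0.11) on the log2 scale. Its values rest on 3438 counts or more in every library, the deepest of the list. Amotl2 (ENSMUSG00000032531, chromosome 9, 102716672 to 102733418, plus strand) stood at 15.9, 13.6 and 12.8 CPM in control and 16.2, 16.4 and 14.3 CPM in Yap-shRNA muscles. Its groups overlapped only in that control 1 lay above Yap-shRNA 3, and its log2 fold change was 0.15 (standard error 0.13, interval -0.15 to 0.45). Ajuba (ENSMUSG00000022178, chromosome 14, 54567472 to 54577558, minus strand) stood at 5.21, 5.02 and 4.52 CPM in control and 5.03, 4.76 and 4.47 CPM in Yap-shRNA muscles, with a log2 fold change of -0.049 (standard error 0.17).

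Their relatives were read beside them. Amot encodes angiomotin, the founding member of the family of Amotl1 and Amotl2 and likewise a protein that binds Yap. It was below every control in each treated muscle, as were 2.73% of all genes. It stood at 102.2, 89.9 and 92.0 CPM in control and at 75.5, 65.2 and 76.2 CPM in treated muscles 1 to 3. The log2 fold change was -0.39 (interval -0.62 to -0.16), which edgeR did not call (unadjusted p = 0.00392, adjusted p = 1.0). Limd1 and Wtip, relatives of Ajuba, had log2 fold changes of 0.019 (interval -0.20 to 0.23) and -0.25 (interval -0.74 to 0.25). Of the 12 relatives of the target genes tested, 6 were above 0 and 6 below, with a median of -0.027.

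Nuak2 (ENSMUSG00000009772, chromosome 1, 132316126 to 132333488, plus strand) encodes a kinase related to AMP-activated protein kinase. It had 20, 14 and 11 counts in control and 16, 19 and 19 counts in Yap-shRNA muscles, or 0.903 to 1.56 CPM over all muscles, the fewest counts of the list. The interval of its log2 fold change of 0.24 ran from -0.44 to 0.93. Nuak1, its relative, stood at 13.5 to 19.9 CPM and had a log2 fold change of -0.070 (interval -0.44 to 0.30).

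Ankrd1 (ENSMUSG00000024803, chromosome 19, 36111961 to 36120099, minus strand) was the gene of the list whose group means lay farthest apart. It encodes cardiac ankyrin repeat protein, which binds titin in the sarcomere, also enters the nucleus, and is known to increase in stretched, injured or denervated muscle. The counts were 448, 125 and 125 in control muscles 1 to 3 and 363, 353 and 505 in Yap-shRNA muscles 1 to 3, or 34.9, 10.5 and 10.3 CPM against 30.5, 27.1 and 40.3 CPM. Control 2 and control 3 were alike and low, every treated muscle was above them, and control 1 lay within the range of the treated muscles. The group means were 18.5 ± 14.1 CPM in control and 32.6 ± 6.84 CPM in Yap-shRNA muscles (SD, n = 3), 176.0% of control, and the log2 fold change was 0.81 (standard error 0.41, interval -0.11 to 1.73). The difference was smaller than the spread between muscles allows to be called (p = 0.3 by the exact permutation test, adjusted p = 1.0 by edgeR). With the muscle number as a block the log2 fold change was 1.00 (interval 0.21 to 1.78), still with an adjusted p of 1.0, though no label ties the numbers to animals.

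The result for Ankrd1 rests on control 1. Without that muscle the log2 fold change was 1.65 (interval 1.24 to 2.06) and the adjusted p 0.0503 (edgeR), just outside the threshold. Leaving out both control 1 and Yap-shRNA 3, the muscles with high tendon markers, was chosen after the data were seen. It gave 1.47 (standard error 0.15) with an adjusted p of 0.0112 by edgeR. Ankrd1 was then 1 of 4 genes called among 13075 (0.0306%), Yap1 being another (adjusted p = 0.0375). Control 1 was the only control to overlap the treated muscles in Ankrd1, so its removal by itself separates the groups. The adjusted p of Ankrd1 in either fit is therefore no independent support for a difference. Between the muscles left out, Yap-shRNA 3 had 40.3 CPM and control 1 had 34.9 CPM, a pair with no replicates. Leaving out any other single muscle gave log2 fold changes from 0.52 to 0.93. The 8 genes listed for regeneration and denervation, such as Myog, Chrng and Runx1, summed to 99.5, 57.1 and 54.4 CPM in control and to 96.2, 46.6 and 114.7 CPM in treated muscles 1 to 3. None of these 8 genes was called and none was at 0 in a library. Their sum was low in Yap-shRNA 2, where Ankrd1 was at 27.1 CPM, but the genes differed. There Myog, Chrna1, Chrng, Myh3 and Myh8 lay below every control, and Gadd45a and Ncam1 within the control range. Runx1 stood at 6.07, 1.51 and 1.23 CPM in control and at 4.95, 4.53 and 9.01 CPM in treated muscles 1 to 3. It was among the 3 genes closest in profile to Ankrd1. The part of these genes in the result was not tested. Ankrd2 and Ankrd23, the other muscle ankyrin repeat genes, did not share the profile of Ankrd1. Ankrd2 stood at 59.4, 135.4 and 83.7 CPM in control and at 75.9, 126.2 and 86.8 CPM in treated muscles, which on the log2 scale is a difference of 0.054 (interval -0.57 to 0.68), and Ankrd23 had a log2 fold change of -0.15 (interval -0.41 to 0.11).

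**Figure D2:**
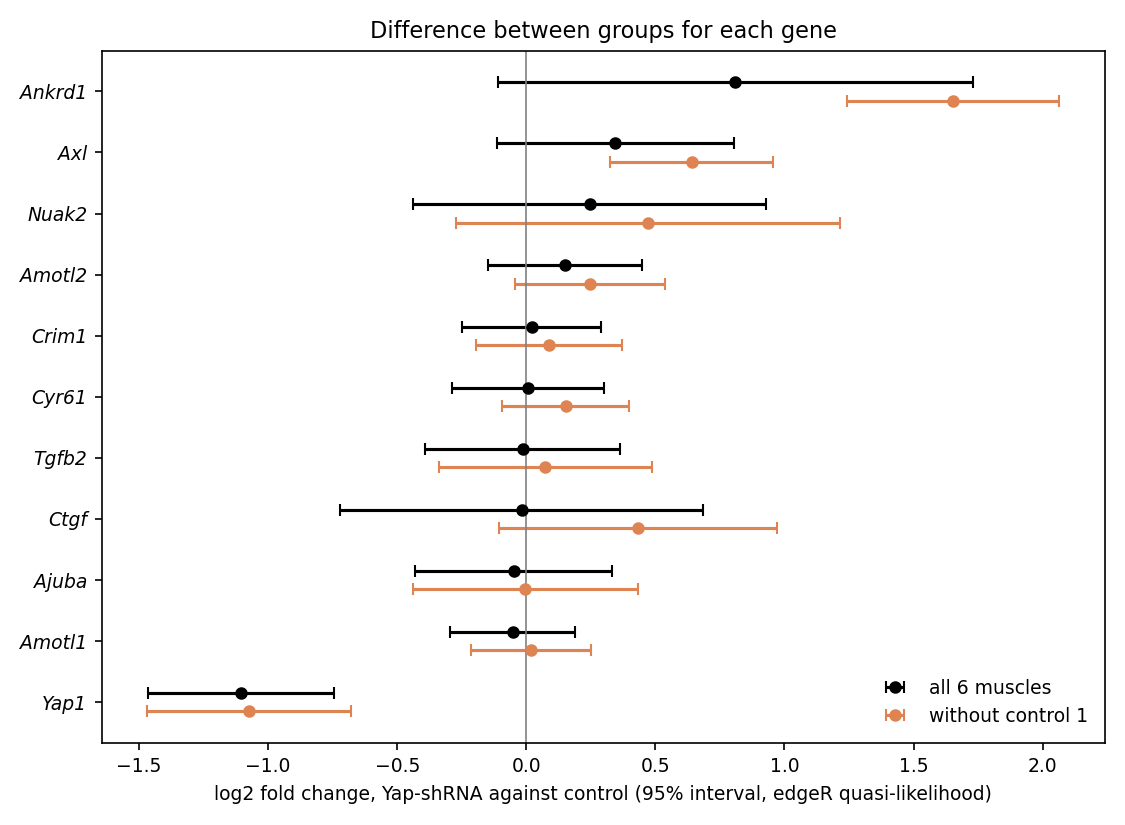
Log2 fold change of each gene, Yap-shRNA against control, with its 95% interval (x axis), for all 6 muscles (black) and without control 1 (orange). All intervals of the 10 target genes cover 0 with all muscles in this fit, which has no block, Ankrd1 moves from 0.81 to 1.65 and Axl from 0.35 to 0.64 without control 1, and Yap1 stays at -1.10 and -1.07.

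Levels could be compared between genes after division by exon length. In control muscles Amotl1 was the highest at 32.1 ± 3.32 CPM per kilobase (SD, n = 3), in the 92.3rd percentile of all genes tested. It was followed by Cyr61 at 12.8 ± 2.15, Ankrd1 at 6.42 ± 4.90, Axl at 6.37 ± 2.05 and Crim1 at 5.53 ± 0.634 CPM per kilobase. Tgfb2 at 4.05 ± 0.436, Ctgf at 3.28 ± 1.55 and Amotl2 at 2.24 ± 0.254 CPM per kilobase lay close to the median gene (2.86 CPM per kilobase). Ajuba at 1.35 ± 0.0988 and Nuak2 at 0.309 ± 0.0837 CPM per kilobase were the lowest, Nuak2 in the 6.36th percentile. Within this order, the ranges of mean ± SD of neighbours overlapped from Cyr61 to Crim1 and from Tgfb2 to Amotl2, while Amotl1, Ajuba and Nuak2 each lay clear of their neighbours. The CCN genes thus differed, with Cyr61 above Ctgf in each group. In Yap-shRNA muscles Ankrd1 stood at 11.3 ± 2.37 CPM per kilobase, and its range of mean ± SD overlapped that of Cyr61 at 12.9 ± 0.807.

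**Figure D3:**
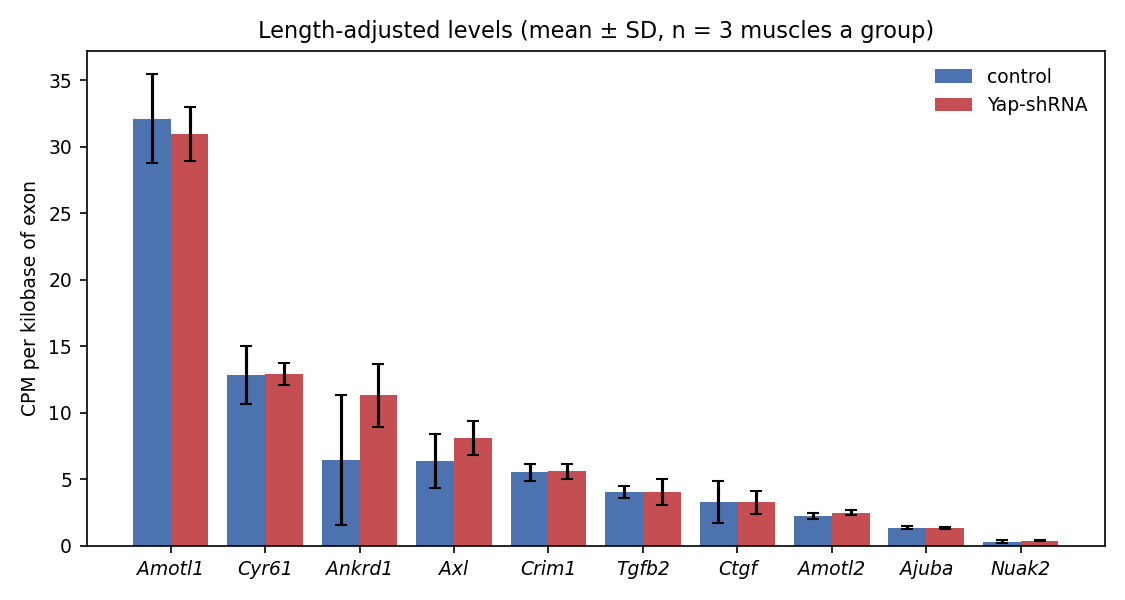
Level of each target gene in CPM per kilobase of exon (y axis, from 0), as the mean of 3 control (blue) and 3 Yap-shRNA muscles (red) with the SD as error bar. Amotl1 stands highest at 32.1 in control and 31.0 in Yap-shRNA muscles, Nuak2 lowest at 0.309 and 0.367, and Ankrd1 has the widest error bar in control muscles.

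The muscle in which a target was highest was often the same. Control 1 was the highest of the 3 control muscles in 10 of the 10 genes, a position it held in 39.7% of all genes tested. Control 1 and Yap-shRNA 3 were the top 2 of the 6 muscles for 6 of the 10 genes (Axl, Nuak2, Amotl1, Ctgf, Ankrd1 and Tgfb2), as they were for 11.2% of all genes. The ratio of control 1 to the mean of the other controls was largest for Ankrd1 at 3.36, followed by Ctgf at 2.09 and Axl at 1.68, and smallest for Ajuba at 1.09. The coefficient of variation over the controls was 76.3% for Ankrd1 and 47.1% for Ctgf, in the 99.1st and 95.6th percentiles of all genes, whereas it was 7.33% for Ajuba. In the same muscles the tendon markers stood high, as did the 8 fibroblast markers tested, which summed to 2884 CPM in control 1 and 3504 CPM in Yap-shRNA 3 against 1699 to 2261 CPM in the others. The 8 endothelial markers tested, in contrast, lay between 420.6 and 486.4 CPM in all muscles. How far the other cells set the target genes was not tested, and these profiles are over 6 muscles from 3 animals.

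**Figure D4:**
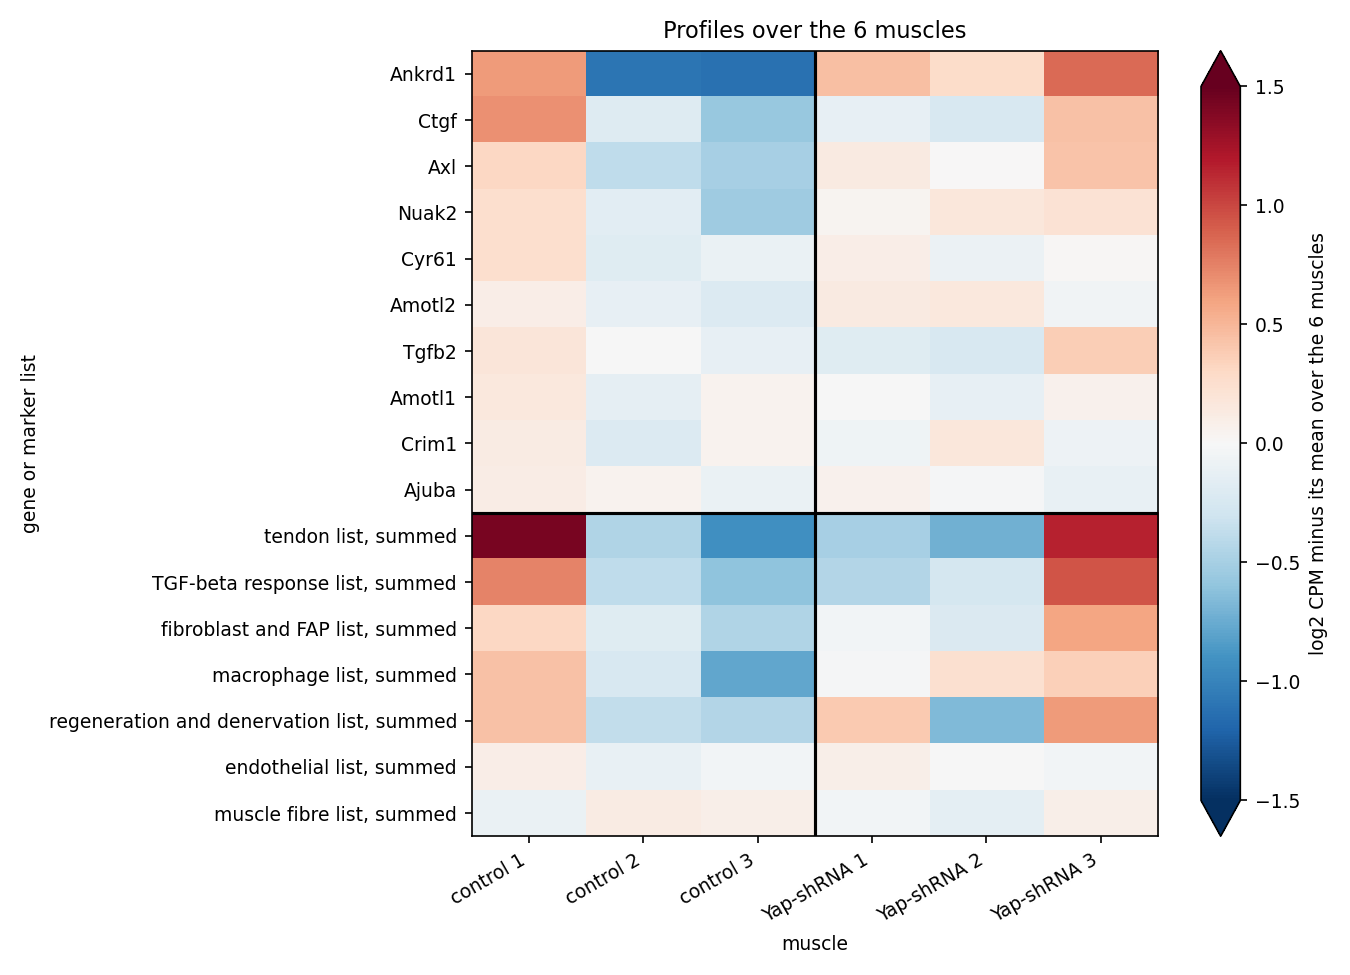
Colour gives log2 CPM minus its mean over the 6 muscles (columns) for each of the 10 target genes and, under the line, for summed CPM of marker lists. Control 1 and Yap-shRNA 3 are red for Ankrd1, Ctgf, Axl and Tgfb2 and for the tendon, growth factor response and fibroblast lists, which sum to 639.0 and 529.3 CPM for tendon. For Ankrd1 the other treated muscles, at 30.5 and 27.1 CPM in Yap-shRNA 1 and 2, also lie above the mean.

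The closest profiles elsewhere in the table were sought by the mean absolute difference of centred log2 CPM over the 6 muscles. For Ctgf these were Col5a2 (0.065), a chain of type V collagen, Clcf1 (0.083) and Ptpn13 (0.084), against a median distance of 0.391 over all genes. Col5a2 stood at 70.3 CPM in control 1, 65.3 CPM in Yap-shRNA 3 and 31.8 to 45.6 CPM in the other muscles. For Ankrd1 the closest were F13a1 (0.15), Runx1 (0.165) and Inhbb (0.168), farther off than for any other target and against a median of 0.735. Among the targets themselves Cyr61 and Amotl1 were nearest (0.079), and Ajuba and Ankrd1 were farthest apart (0.72). For Cyr61, Stard13 (0.025) and Btbd3 (0.026) were among the closest. The other targets had their nearest genes at 0.0167 to 0.0601, among them Stk17b, St5 and Tppp3 for Tgfb2, Kirrel, Btg1 and Tlr4 for Axl, Mfsd14a, Ifnar1 and Hspa9-ps1 for Crim1, and Rint1, Map4 and Jph1 for Amotl1. For Ajuba they were Mecr, Wwp2 and H2-T23, for Amotl2 they included Ubxn4 and Otud5, and for Nuak2 Tmem237 and Rcn1.

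With control 1 left out, 5 of the 10 targets (Amotl2, Ankrd1, Axl, Cyr61 and Nuak2) were higher in all 3 Yap-shRNA muscles than in both remaining controls, beside 11.7% of all genes, and none was lower in all of them, beside 12.0% of all genes (23.7% in either direction). The median log2 fold change of the 10 was then 0.20 and 9 were above 0, with a median of 0.0011 over all genes. As control 1 was the highest control for all 10 targets, leaving it out lowers the control mean of each by construction, so this shift upward was set by that choice and the shares over all genes are no measure of what it would give by itself. None was called (background 0.0076%), and 2 had an unadjusted p under 0.05, Ankrd1 and Axl, beside 7.11% of all genes. With Yap-shRNA 3 left out as well, 5 were higher and Tgfb2 was lower in both treated muscles than in both controls, beside 17.6% and 17.3% of all genes (34.9% in either direction). The sign turned for Ctgf, Amotl1 (0.018) and Tgfb2 (0.073) without control 1 and for Ajuba (0.039) without both muscles. In neither fit was a target called lower.

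A wider list of genes held to be Yap or Taz targets in other cells was read in the same fits. Of 24 listed genes 20 were tested, and none was called by edgeR (adjusted p = 1.0 for each, 1 gene at an unadjusted p under 0.05). The log2 fold change was above 0 for 18 of the 20 and below 0 for 2, with a median of 0.166, beside 49.0% above 0 among all genes. Gadd45a, a stress and growth arrest gene, had the largest log2 fold change at 0.52 (interval 0.12 to 0.93, unadjusted p = 0.0172). It stood at 16.6, 18.1 and 15.4 CPM in control and 28.9, 17.1 and 26.1 CPM in treated muscles 1 to 3, and overlapped through Yap-shRNA 2. Frmd6, a regulator upstream of the Hippo kinases, was the 1 gene of the 20 to be higher in every treated muscle, beside 2.54% of all genes. It stood at 12.3 to 12.8 CPM against 9.69 to 11.6 CPM, with a log2 fold change of 0.26 (interval -0.042 to 0.56). Lats2, the kinase that targets feed back on, had a log2 fold change of 0.13 (interval -0.15 to 0.42). Thbs1, which encodes the matrix protein thrombospondin-1, followed the uneven muscles, with 13.5 CPM in control 1 and 12.7 CPM in Yap-shRNA 3 against 3.04 to 6.76 CPM in the others. Ddah1 and Dock5 were the 2 genes below 0, at -0.26 (interval -0.87 to 0.34) and -0.073 (interval -0.99 to 0.84).

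**Figure D5:**
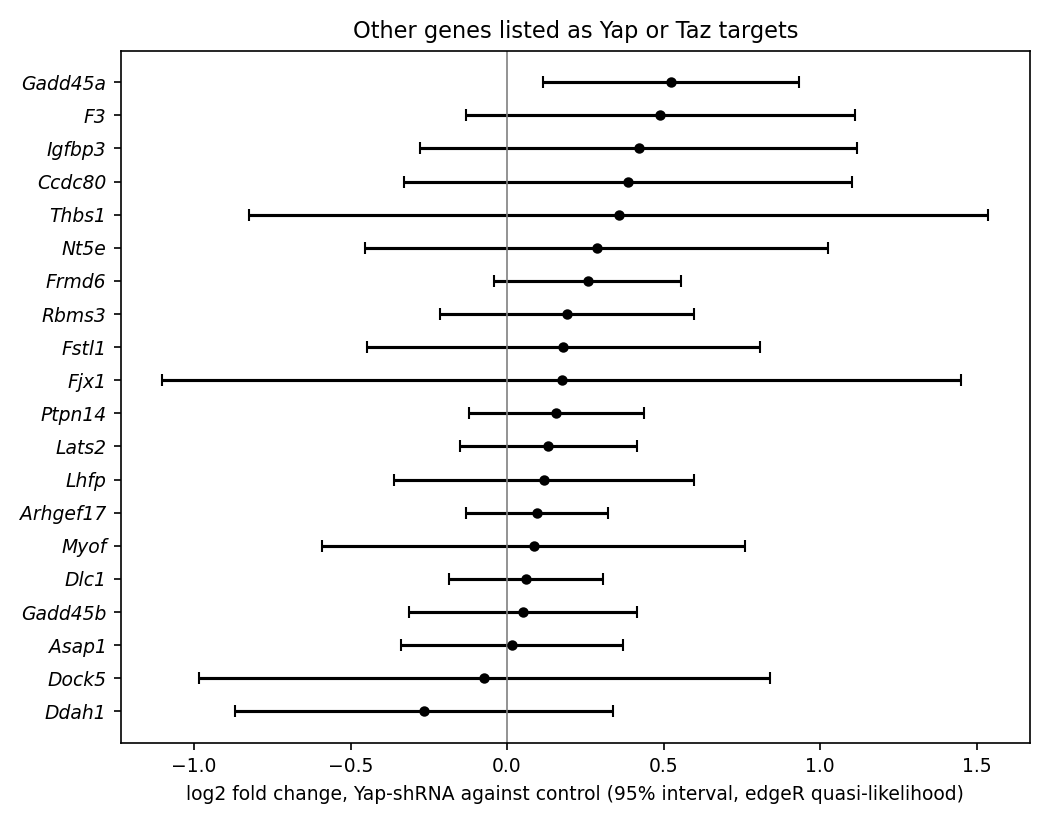
Log2 fold change of the 20 other listed Yap or Taz target genes tested, Yap-shRNA against control, with its 95% interval (x axis) and the genes ordered by it. The values lie between -0.26 (Ddah1) and 0.52 (Gadd45a), 18 of them above 0, and the interval covers 0 for all but Gadd45a.

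Genes of the other lists were read as background to these values. The 8 immediate early genes tested, which respond within minutes to handling and stress, summed to 126.5 to 141.8 CPM in control and to 152.7 to 158.2 CPM in Yap-shRNA muscles, all higher. Junb alone of them was higher in each treated muscle, beside 2.54% of all genes. It stood at 20.7, 16.8 and 24.6 CPM against 13.1, 12.2 and 11.7 CPM (log2 fold change 0.75, interval 0.40 to 1.09, unadjusted p = 0.000729 and adjusted p = 1.0 by edgeR). The part of these genes in the target values was not tested. The markers of pericytes and smooth muscle (6 genes) summed to 603.7 to 703.4 CPM in control and 536.2 to 634.7 CPM in Yap-shRNA muscles, those of satellite cells (4 genes) to 36.9 to 45.4 and 40.1 to 44.5 CPM, and those of Schwann cells (5 genes) to 94.0 to 158.1 and 116.7 to 144.3 CPM. Of the 4 adipocyte markers tested, Fabp4, which endothelial cells also express, lay between 205.2 and 257.7 CPM in all muscles, while the other 3 were high in Yap-shRNA 3. There Adipoq stood at 16.4 CPM (1.59 to 4.75 CPM in the other muscles), Plin1 at 10.8 CPM (1.59 to 3.27 CPM) and Cfd, also the highest there, at 50.1 CPM (8.03 CPM in control 2, the lowest muscle). Their part in the values of that muscle was not tested.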

How the data were processed

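Polyadenylated RNA of 6 TA muscles was sequenced, and the authors deposited a table of read counts for each gene that had not been normalised. The submitters' processing notes name bcl2fastq 2.20.0.422 and GRCm38. For this series the aligner and counter are not given in the sources used here. Every gene in the table had at least 60 counts over the libraries. The filterByExpr filter left 13113 of 13226 genes, which were TMM-scaled and compared between groups in R 4.3.3 by the quasi-likelihood test of edgeR 4.0.16 with no covariate, a Benjamini-Hochberg adjustment and a threshold of 0.05. A standard error is the absolute log2 fold change over the root of F. Alternatives were the edgeR likelihood ratio test, DESeq2 1.42.0, limma-voom (limma 3.58.1), other scalings and filters, a replicate block and leaving out muscles. The test was checked on simulated counts that held no uneven muscle. The planted differences were larger than that of any target with all 6 muscles, so the check says nothing of smaller ones. Genes were matched by identifier to GENCODE M21 on GRCm38 for 99.8% of those tested, whose merged exons gave lengths. No label ties a muscle number to an animal, and p-values measure the spread between these samples. Intervals rest on 3 muscles a group. Named genes were the 10 targets, Yap1, their protein families, the genes of lists with groups that did not overlap, and the 3 genes nearest in profile (among genes of mean CPM of at least 1). Promoter sequences were from RefSeq (GRCm38.p6). Gadd45a, Wwtr1, Tead1, Lats2, Thbs1, Igfbp3, Ccdc80, Ddah1, Dock5 and the adipocyte markers were picked after their values were seen. The targets and lists were chosen with earlier results of these data known. Leaving out control 1 and Yap-shRNA 3 together was chosen after seeing the data. Counts of groups that did not overlap with any muscle left out were not planned beforehand. Some genes that this rule names are not reported here.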

Additional observations from a re-analysis of the deposited data

How the results depend on the processing

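No target gene was called by any of the tests, scalings and filters tried on all 6 muscles or without a single muscle, and the exception was Ankrd1 when control 1 and Yap-shRNA 3 were both left out (1 of the 10 called, log2 fold change 1.47). Over all genes 0 were called by the quasi-likelihood test, 5 by the likelihood ratio test, 5 by DESeq2, 0 to 1 without each muscle in turn and 4 without control 1 and Yap-shRNA 3. The count of targets whose groups did not overlap went from 0 to between 0 and 5 without each muscle and to 6 without both. The share of all genes went from 5.27% to between 10.5% and 23.7% without each muscle and to 34.9% without both. Over the 10 targets, 123 values kept direction and call, 16 turned sign and 1 gained the call. Ctgf turned to 0.042 with limma-voom, 0.037 with the replicate block and 0.19 without both muscles, and Ajuba to 0.039 without both. With single muscles left out, log2 fold changes lay between -0.26 and 0.43 for Ctgf, -0.078 and 0.15 for Cyr61, -0.24 and 0.098 for Tgfb2, -0.13 and 0.018 for Amotl1 and -0.069 and 0.088 for Crim1. Yap1 kept its direction and was called by the likelihood ratio test (adjusted p 1.72e-06), DESeq2 (adjusted p 5.05e-07) and without both muscles. The replicate block changed no call, with Ankrd1 at 1.00 (unadjusted p 0.0185, adjusted p 1.0 by edgeR). Departures from the group mean correlated at -0.062, 0.225 and -0.266 between muscles of equal number, and 2 of 6 muscles correlated best with their own number. With 3 muscles a group this could neither show nor exclude pairs. The numbers were not taken as pairs because no label ties them to animals. Nuak2 had the fewest counts, and depth and the spread between 3 muscles a group were not separated. The causes were not tested.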
